A study of Mus musculus with 8 samples.

Results

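The Fc gamma receptor genes described here are Fcgr1, Fcgr4, Fcgr3, Fcgr2b, Fcer1g and Fcgrt, which were picked by gene symbol and matched to the count table by Ensembl identifier. They are 6 of 55536 counted genes, and all 6 were among the 15998 genes with enough counts to be tested. The members were chosen by a rule set with results of this contrast in view, so their differences between the groups are given as a description, without tests. RNA was sequenced from 8 HCA-1 tumors, a mouse hepatocellular carcinoma line grown in the liver of male C3H mice after injection under the liver capsule. The mice were 6 to 8 weeks old at implantation by the sample labels, and the published methods state a younger age range. On day 17 the mice received intravenous PFSUV-IMQ (IMQNP in the sample labels), a vesicle without phospholipids loaded with imiquimod, which activates TLR7, as a single dose of 4 mg per kg (replicates 1, 2, 3 and 4), or saline (Control, replicates 1, 3, 4 and 5). All tumors were taken 3 h later, all of them carry the same implanted line, and no other agent or allele is given for either group. Each sample is a whole tumor, with the mouse's own immune and stromal cells beside the implanted cells.

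Fc gamma receptors are surface proteins by which macrophages, monocytes, neutrophils, NK cells and B cells bind the constant part of IgG antibodies. The mouse has activating receptors, whose ligand-binding alpha chains signal through the shared Fc receptor gamma chain, and an inhibitory receptor, which recruits a phosphatase through its own tail, and the balance of the classes sets how strongly a cell answers immune complexes. In the liver, Kupffer cells and sinusoidal endothelial cells use these receptors to clear immune complexes from blood, and the related neonatal receptor FcRn returns IgG and albumin from endosomes to the circulation.

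Stretches upstream of RefSeq transcription starts are shown for the alpha chains whose groups did not overlap, Fcgr1 and Fcgr4, and for Fcgr3, whose groups did. The Fcgr3 stretch lies inside the gene as GENCODE M21 annotates it (171051174 to 171064935, minus strand). It is therefore upstream of a RefSeq start but downstream of the outermost GENCODE start. Capitals mark matches to a GAS element (TTCNNNGAA), the type of site bound by STAT dimers, or to the core of an ISRE (GAAANNGAAA), the type of site bound by interferon regulatory factors. The sequences are from the RefSeq promoter table for GRCm38.p6, are written 5′ to 3′ on the gene's strand, and leave out bases that GENCODE M21 annotates as UTR.
Fcgr1 (chr3:96293970-96294219, - strand): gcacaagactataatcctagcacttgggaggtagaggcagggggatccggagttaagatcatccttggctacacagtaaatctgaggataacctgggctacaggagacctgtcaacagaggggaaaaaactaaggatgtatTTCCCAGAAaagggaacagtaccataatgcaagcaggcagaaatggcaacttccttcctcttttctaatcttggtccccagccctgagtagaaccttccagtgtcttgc
Fcgr4 (chr1:171018676-171018919, + strand): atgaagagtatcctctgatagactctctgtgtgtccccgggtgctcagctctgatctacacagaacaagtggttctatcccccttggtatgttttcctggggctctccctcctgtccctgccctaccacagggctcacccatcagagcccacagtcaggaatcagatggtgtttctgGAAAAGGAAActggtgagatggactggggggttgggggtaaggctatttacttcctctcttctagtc
Fcgr3 (chr1:171059404-171059626, - strand): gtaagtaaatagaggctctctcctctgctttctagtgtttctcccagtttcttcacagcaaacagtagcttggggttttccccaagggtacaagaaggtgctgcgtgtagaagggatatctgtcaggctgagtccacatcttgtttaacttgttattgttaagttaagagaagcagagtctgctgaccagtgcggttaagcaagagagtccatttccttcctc

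The promoter table held 7 windows for the 6 genes, each of 300 bases, with 250 before and 50 after the start and with a second start for Fcgr3. On either strand, a GAS match was found in the window of Fcgr1, beginning 109 bases before the start (-109), and in none of the other 6 windows, against 8.30% of all 32851 windows in the table. An ISRE core match was found in the window of Fcgr4, at -73, and in none of the other 6, against 3.44% of all windows. The PU box GAGGAA, the type of site bound by the myeloid factor PU.1, lay as TTCCTC at -55 in Fcgr1, at -22 in Fcgr4 and at -6 in the first Fcgr3 window (-15 from the second start), against 28.3% of all windows. The windows of Fcgr2b, Fcer1g and Fcgrt held none of the 3 motifs. Those of Fcgr2b and Fcgr3 lie wholly inside their genes as GENCODE M21 annotates them. Sequence upstream of the outermost GENCODE starts of Fcgr2b and Fcgr3 was not searched. Their missing GAS and ISRE core matches are therefore not set against Fcgr1 and Fcgr4. No GAS, ISRE core or PU box match overlapped another in these windows. A match is a stretch of letters and was not tested for binding.

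**Figure D1:**
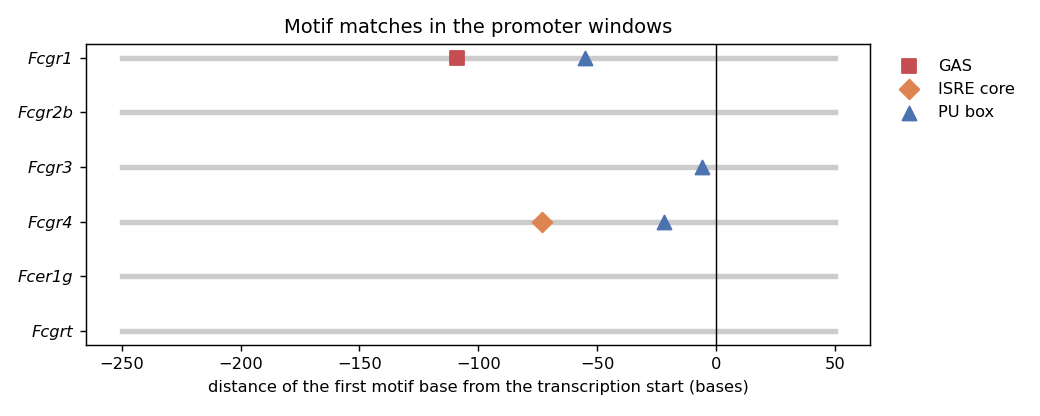
Motif matches in the RefSeq promoter windows of the 6 genes, by distance of the first motif base from the transcription start in bases, with 1 window a gene drawn. The GAS match at -109 lies in Fcgr1, the ISRE core match at -73 in Fcgr4, and PU box matches in Fcgr1, Fcgr4 and Fcgr3. The windows of Fcgr2b and Fcgr3 lie inside their genes as GENCODE M21 annotates them.

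Deposited counts totalled 16883911 to 27687756 per saline tumor and 17008151 to 18527613 per PFSUV-IMQ tumor, and mitochondrial genes took 1.37 to 6.65% of them. The highest mitochondrial share was that of PFSUV-IMQ tumor 2. Levels are normalized CPM, that is counts scaled to a common library size by edgeR's TMM method, and each member had between 345 and 5659 counts in every tumor, so counting error was small beside the spread between tumors. Differences are log2 fold changes of PFSUV-IMQ against saline from edgeR's quasi-likelihood fit over all tested genes, with standard errors (SE). The test returns no SE, so it was derived as the absolute log2 fold change over the square root of the F statistic. Calls required a log2 fold change over 1 or under -1 together with a Benjamini-Hochberg adjusted p below 0.05. Across the 15998 genes, 362 were called higher (2.26%) and 32 lower (0.200%), and 960 (6.00%) had every PFSUV-IMQ tumor above every saline tumor. PFSUV-IMQ tumor 2 was the highest of its group in 320 of the 362 higher genes. Of the hepatocellular carcinoma markers tested, Afp had 5.46 ± 0.683 CPM, Gpc3 1.23 ± 0.371 CPM and H19 2.76 ± 1.26 CPM in saline tumors (SD, n = 4), so these markers were low in samples labelled as that cancer. The 8 hepatocyte markers summed to 4694 to 38035 CPM in saline and 7057 to 37477 CPM in PFSUV-IMQ tumors, so the tumors differed widely in hepatocyte RNA within each group. The highest sums were those of saline tumor 4 and PFSUV-IMQ tumor 2, and the other PFSUV-IMQ tumors reached at most 10169 CPM. In such bulk samples, a change in the number of cells of a type and a change in RNA per cell cannot be told apart.

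Fcgr1 was called higher, as 1 of the 6 members, and none was called lower, beside 2.26% and 0.200% of all tested genes. Fcgr1 and Fcgr4 had every PFSUV-IMQ tumor above every saline tumor, that is 2 of 6 members beside 6.00% of all tested genes. These counts use the contrast the members were picked on, so nothing is read from them. Fcgr2b, Fcgr3, Fcer1g and Fcgrt had overlapping groups.

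**Figure D2:**
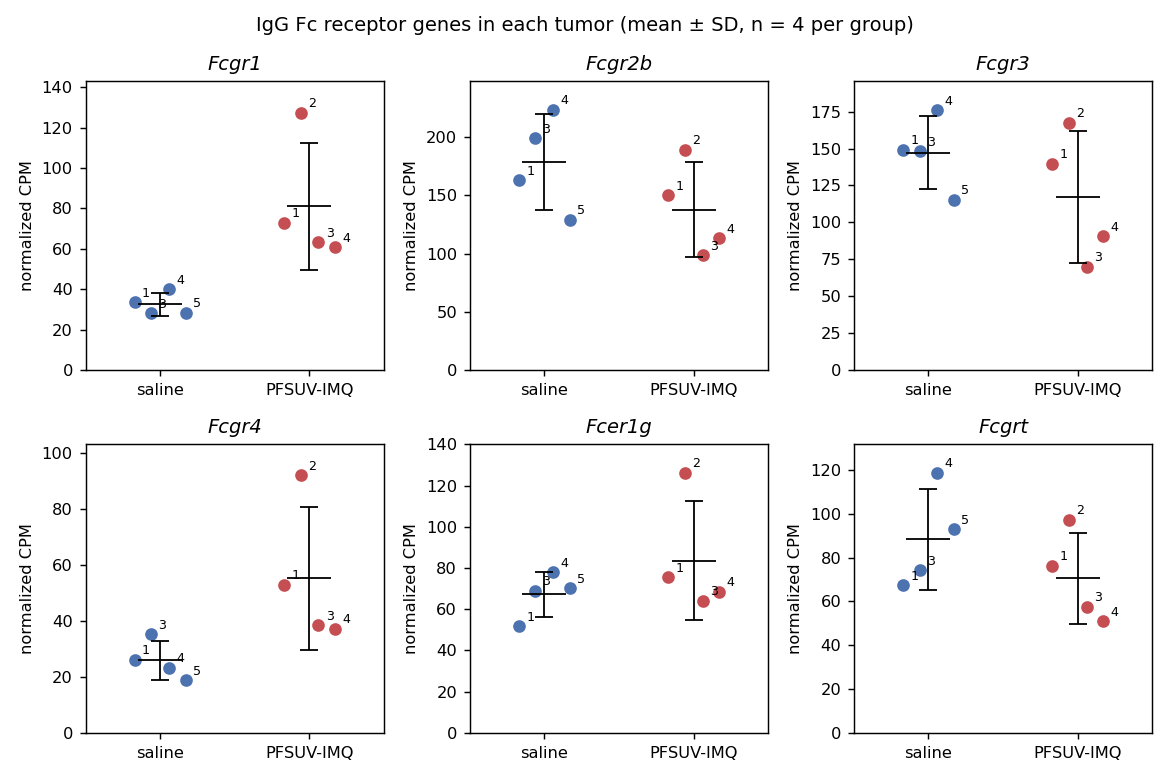
Normalized CPM of the 6 genes in each tumor (points, numbered by replicate), with the mean and SD of the 4 tumors per group as bars. Fcgr1 and Fcgr4 had no overlap between groups, and PFSUV-IMQ tumor 2 was the highest of its group in all 6 panels.

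Fcgr1 (ENSMUSG00000015947, GRCm38 chromosome 3, 96282909 to 96293969, minus strand) encodes the alpha chain of FcγRI, the high-affinity IgG receptor of macrophages and monocytes. It had 33.7, 28.1, 40.0 and 28.4 CPM in saline tumors 1, 3, 4 and 5. It had 72.9, 127, 63.2 and 60.8 CPM in PFSUV-IMQ tumors 1, 2, 3 and 4. The lowest PFSUV-IMQ tumor stood above the highest saline tumor, and tumor 2 stood well above the other PFSUV-IMQ tumors. The group means were 32.6 ± 5.61 and 81.1 ± 31.3 CPM (SD, 4 tumors each), and the log2 fold change was 1.32 (SE 0.26). Without PFSUV-IMQ tumor 2 the log2 fold change was 0.99, under the fold limit. The call of Fcgr1 was also lost, on the adjusted p, when any 1 of saline tumors 1, 3, 4 or 5 was left out, with log2 fold changes between 1.25 and 1.43.

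Fcgr4 (ENSMUSG00000059089, chromosome 1, 171018920 to 171029761, plus strand) encodes the alpha chain of FcγRIV, an activating receptor of monocytes, macrophages and neutrophils that binds IgG2a/c and IgG2b. It had 26.1, 35.3, 23.3 and 18.7 CPM in saline tumors 1, 3, 4 and 5. It had 52.9, 91.9, 38.5 and 37.3 CPM in PFSUV-IMQ tumors 1, 2, 3 and 4. The groups did not overlap, although saline tumor 3 came close to PFSUV-IMQ tumors 3 and 4. The means were 25.9 ± 6.99 and 55.2 ± 25.5 CPM, a log2 fold change of 1.09 (SE 0.32) that was not called. Without PFSUV-IMQ tumor 2 it was 0.71.

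Fcgr3 (ENSMUSG00000059498, chromosome 1, 171051174 to 171064935, minus strand) encodes the alpha chain of FcγRIII, an activating receptor of lower affinity found on most myeloid cells and on NK cells. It had 149, 148, 176 and 115 CPM in saline tumors 1, 3, 4 and 5. It had 140, 167, 70.1 and 90.9 CPM in PFSUV-IMQ tumors 1, 2, 3 and 4. PFSUV-IMQ tumors 3 and 4 lay below all saline tumors, while tumors 1 and 2 lay among them. The means were 147 ± 24.7 and 117 ± 44.5 CPM, a log2 fold change of -0.33 (SE 0.27).

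Fcgr2b (ENSMUSG00000026656, chromosome 1, 170958617 to 170976547, minus strand) encodes FcγRIIB, the inhibitory receptor of B cells, myeloid cells and liver sinusoidal endothelium. It had 163, 199, 223 and 129 CPM in saline tumors 1, 3, 4 and 5. It had 150, 189, 98.5 and 113 CPM in PFSUV-IMQ tumors 1, 2, 3 and 4. As for Fcgr3, PFSUV-IMQ tumors 3 and 4 lay below the saline range and tumors 1 and 2 within it. The means were 179 ± 41.2 and 138 ± 40.7 CPM, a log2 fold change of -0.38 (SE 0.25). Fcgr2b and Fcgr3 share sequence, and words of 50 bases found in another gene made up 11.4% of the longest coding transcript of Fcgr2b and 12.8% of that of Fcgr3. Their counts are therefore uncertain, by an amount that was not measured. The words of Fcgr3 were shared with Fcgr2b alone, and the other 4 members shared none. Those of Fcgr2b were shared with Fcgr3 and with further genes, among them Gm4117, Gm33843 and Pou2f2, so the 11.4% is not all overlap with Fcgr3. An annotated exon of Gm38204 on the opposite strand covers 2.68% of the exon bases of Fcgr2b, and the strand setting of the counting is not given in the sources used here.

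Fcer1g (ENSMUSG00000058715, chromosome 1, 171229572 to 171234365, minus strand) encodes the Fc receptor gamma chain, the ITAM-bearing adaptor without which FcγRI, FcγRIII and FcγRIV are poorly held at the cell surface. It had 51.9, 69.0, 77.8 and 70.3 CPM in saline tumors 1, 3, 4 and 5. It had 75.6, 126, 64.2 and 68.5 CPM in PFSUV-IMQ tumors 1, 2, 3 and 4. Apart from tumor 2, the PFSUV-IMQ tumors lay within the saline range. The means were 67.3 ± 11.0 and 83.6 ± 28.8 CPM, a log2 fold change of 0.31 (SE 0.24), which was 0.03 without PFSUV-IMQ tumor 2.

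Fcgrt (ENSMUSG00000003420, chromosome 7, 45092990 to 45103851, minus strand) encodes the heavy chain of FcRn, which resembles MHC class I, pairs with beta-2 microglobulin and carries IgG and albumin rather than signaling. It had 67.4, 74.1, 119 and 92.9 CPM in saline tumors 1, 3, 4 and 5. It had 76.3, 97.2, 57.6 and 51.1 CPM in PFSUV-IMQ tumors 1, 2, 3 and 4. PFSUV-IMQ tumors 3 and 4 were again the lowest of all, and the groups overlapped. The means were 88.3 ± 23.0 and 70.5 ± 20.8 CPM, a log2 fold change of -0.32 (SE 0.25).

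To compare levels between genes, CPM were divided by the length of the gene's merged exons in kilobases (CPM per kb). In saline tumors the mean levels per kb fell in the order Fcgr3 (84.8 ± 14.2), Fcer1g (77.0 ± 12.5), Fcgrt (42.0 ± 10.9), Fcgr2b (30.9 ± 7.12), Fcgr4 (20.6 ± 5.57) and Fcgr1 (12.6 ± 2.17). The ranges of neighbours in this order overlapped except between Fcer1g and Fcgrt. After PFSUV-IMQ the order was Fcer1g (95.7 ± 32.9), Fcgr3 (67.4 ± 25.6), Fcgr4 (43.9 ± 20.3), Fcgrt (33.6 ± 9.88), Fcgr1 (31.3 ± 12.1) and Fcgr2b (23.8 ± 7.02 CPM per kb), and all neighbouring ranges overlapped. With the length of the longest coding transcript instead, Fcgr2b took rank 3 in saline tumors at 50.4 ± 11.6 CPM per kb, beside Fcgrt at 49.9 ± 13.0, and rank 5 rather than 6 after PFSUV-IMQ. Fcgr3 and Fcer1g thus led the order in saline tumors, and Fcgr1 stood last there, with either length.

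The make-up of the 4 ligand-binding chains in each tumor was taken as each chain's share of their summed CPM per kb, a measure that does not depend on library scaling. Fcgr1 held 8.80, 6.85, 8.89 and 9.57% of the sum in saline tumors 1, 3, 4 and 5, and 15.9, 19.6, 21.7 and 18.8% in PFSUV-IMQ tumors 1, 2, 3 and 4. Fcgr4 held 14.1, 17.7, 10.7 and 13.0% in saline and 23.8, 29.1, 27.2 and 23.7% in PFSUV-IMQ tumors. Each PFSUV-IMQ tumor stood above every saline tumor in both shares, and in these shares PFSUV-IMQ tumor 3 stood near tumor 2 although its CPM were much lower. Together the Fcgr1 and Fcgr4 shares went from 22.4 ± 2.08 to 45.0 ± 4.57% (SD, n = 4 each), and from 17.3 ± 1.70 to 37.2 ± 4.24% with the length of the longest coding transcript. The share of Fcgr3 went from 57.0 ± 2.17 to 40.4 ± 4.22% and that of Fcgr2b from 20.6 ± 1.57 to 14.6 ± 1.14%, with no overlap between groups. Because the 4 shares are parts of a whole, the combined fall of Fcgr3 and Fcgr2b follows from the Fcgr1 and Fcgr4 rise. It is not a separate result, and the CPM of Fcgr3 and of Fcgr2b overlapped between groups. The summed level of the 4 chains, 149 ± 25.1 CPM per kb in saline and 166 ± 63.2 in PFSUV-IMQ tumors, overlapped between groups. The summed activating chains Fcgr1, Fcgr3 and Fcgr4 stood at 1.57 ± 0.356 times Fcer1g per kb in saline and 1.48 ± 0.201 times after PFSUV-IMQ, also overlapping.

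**Figure D3:**
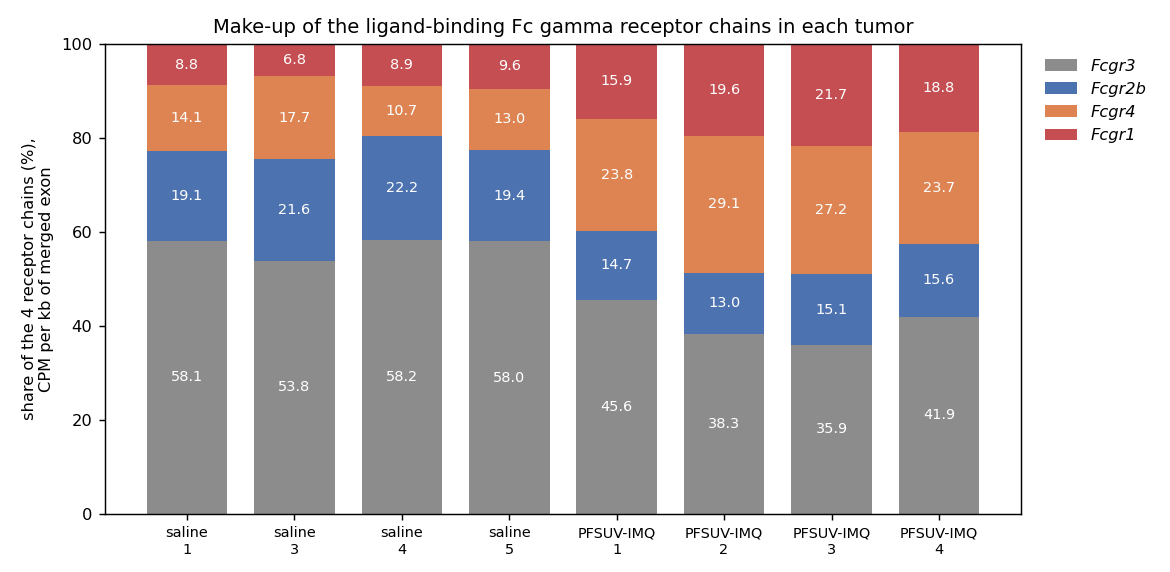
Share of each ligand-binding Fc gamma receptor chain, in percent of their summed CPM per kb of merged exon, in each of the 8 tumors. Fcgr1 and Fcgr4 together made up 19.6 to 24.6% in saline tumors and 39.8 to 49.0% in PFSUV-IMQ tumors.

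Relative to the inhibitory Fcgr2b in the same tumor, the activating chains divided into a pair whose groups separated and one whose groups overlapped. The log2 ratio of Fcgr1 to Fcgr2b CPM was -2.27, -2.82, -2.48 and -2.18 in saline tumors 1, 3, 4 and 5. It was -1.04, -0.57, -0.64 and -0.89 in PFSUV-IMQ tumors 1, 2, 3 and 4, a difference of means of 1.65. The log2 ratio of Fcgr4 to Fcgr2b was -2.79 ± 0.33 in saline and -1.37 ± 0.24 in PFSUV-IMQ tumors, a difference of 1.42 with no overlap. That of Fcgr3 to Fcgr2b was -0.27 ± 0.14 and -0.27 ± 0.17, and the groups overlapped. The ratio of Fcer1g to Fcgr2b went from -1.39 ± 0.35 to -0.73 ± 0.18 and overlapped through saline tumor 5, at -0.88. Over the 8 ways of leaving out 1 tumor, the difference stayed between 1.52 and 1.74 for Fcgr1 and between 1.26 and 1.52 for Fcgr4, so PFSUV-IMQ tumor 2 weighed less on these ratios than on the CPM. Fcgr1 and Fcgr4 did not separate from each other, with a log2 ratio of 0.35 ± 0.48 in saline and 0.59 ± 0.14 in PFSUV-IMQ tumors.

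The 12 macrophage markers gave a second reference in the same tumor. Their mean log2 CPM ranged from 6.40 to 6.99 in saline and from 5.94 to 6.99 in PFSUV-IMQ tumors, and none of the 12 was called in either direction by edgeR's quasi-likelihood test, DESeq2 or edgeR's exact test, with 1 higher and 1 lower at an unadjusted p under 0.05 (median log2 fold change -0.13, against -0.03 over all tested genes). Their summed level was 2149 to 3115 CPM in saline and 1557 to 3123 CPM in PFSUV-IMQ tumors. The log2 ratio of Fcgr1 to the marker mean was -1.46, -1.75, -1.67 and -1.56 in saline tumors 1, 3, 4 and 5. In PFSUV-IMQ tumors 1, 2, 3 and 4 it was -0.41, 0.0036, 0.044 and -0.17, a difference of 1.48 with no overlap. Fcgr4 went from -1.96 ± 0.44 to -0.72 ± 0.20, a difference of 1.24 with no overlap. On the same scale the differences were 0.49 for Fcer1g, -0.18 for Fcgr2b, -0.18 for Fcgr3 and -0.12 for Fcgrt, and these groups overlapped. Of the 12, 3 had positive and 9 negative log2 fold changes. Cd163, a scavenger receptor for haemoglobin, had -1.02 (SE 0.33, adjusted p = 0.183) and Csf1r, the CSF-1 receptor, -0.74 (SE 0.33, adjusted p = 0.388, edgeR quasi-likelihood test). Cd14, the LPS co-receptor, named after its values were seen, was the 1 marker whose groups did not overlap, with 85.0 ± 2.18 and 132 ± 26.1 CPM, a log2 fold change of 0.63 (adjusted p = 0.104). Over all tested genes, 6.00% had every PFSUV-IMQ tumor above every saline tumor.

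**Figure D4:**
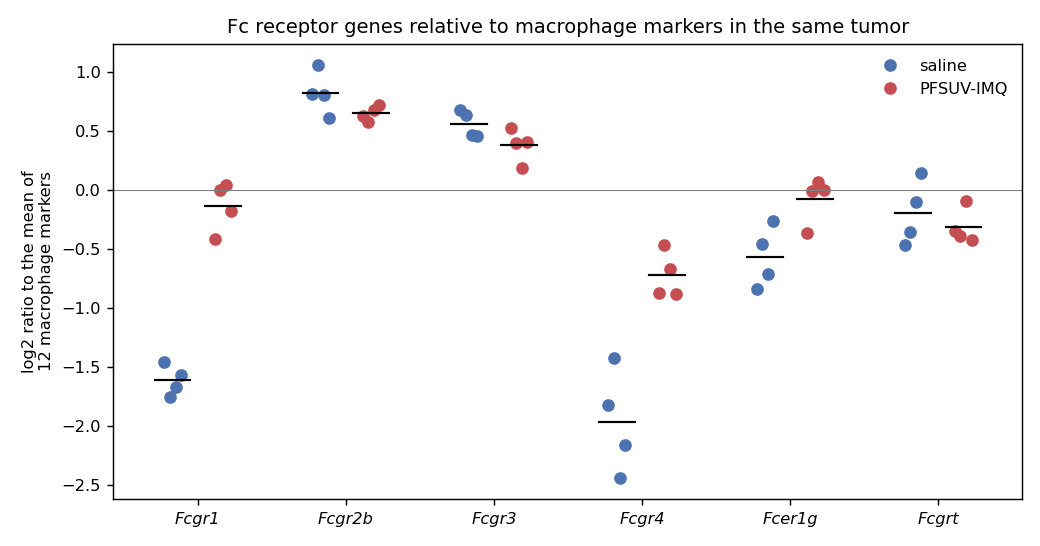
Log2 ratio of each gene's CPM to the mean of 12 macrophage markers in the same tumor, with 1 point a tumor and lines at the means of 4 tumors. The group means of Fcgr1 and Fcgr4 differed by 1.48 and 1.24 with no overlap, and the other 4 genes overlapped between saline and PFSUV-IMQ.

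The other cell types that carry Fc gamma receptors were read from marker lists with the same fit, and their part in the Fc receptor values was not tested. Across 13 marker lists, 80 of 88 markers were tested, 0 were called higher and 2 lower by edgeR's quasi-likelihood test. At an unadjusted p under 0.05 they were 6 and 10, beside 8.34% and 4.65% of all tested genes, and DESeq2's Wald test called 1 higher and 4 lower and edgeR's exact test 1 and 3. The 2 that were lower in the quasi-likelihood test were Cx3cr1, the fractalkine receptor of patrolling monocytes, which fell from 71.0 ± 21.8 to 10.1 ± 3.59 CPM (log2 fold change -2.81, SE 0.33, adjusted p = 0.00243), and Vsig4, a complement receptor of Kupffer cells, which fell from 17.3 ± 7.61 to 5.63 ± 2.103 CPM (log2 fold change -1.62, SE 0.35, adjusted p = 0.0453). Vsig4 kept its call in 1 of 8 fits over 7 tumors, with log2 fold changes between -1.91 and -1.27. The 5 Kupffer markers summed to 69.1 to 174 CPM in saline and 48.4 to 87.3 CPM in PFSUV-IMQ tumors, and Clec4f, a Kupffer lectin, had a log2 fold change of -0.96 (SE 0.27, adjusted p = 0.122). At an unadjusted p under 0.05, 0 Kupffer markers were higher and 3 lower, and DESeq2 and edgeR's exact test each called 0 and 1. Among 7 monocyte markers (192.8 to 319 against 166 to 372 CPM), Ly6c2, which marks inflammatory monocytes, had 5.23 ± 1.86 and 19.3 ± 11.8 CPM (log2 fold change 1.88, SE 0.45, adjusted p = 0.0633). Ccr2, of the same list and named after its values were seen, went the other way, with 56.0 ± 24.3 and 23.9 ± 4.68 CPM. Its log2 fold change was -1.23 (SE 0.32, adjusted p = 0.089, edgeR quasi-likelihood test), and its groups overlapped. At an unadjusted p under 0.05, 2 monocyte markers were higher and 2 lower, and DESeq2 and edgeR's exact test each called 1 and 2.

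Neutrophils, which carry FcγRIV and FcγRIII, were represented by 6 tested markers of 8, all with positive log2 fold changes (median 1.07) and 0 called by edgeR's quasi-likelihood test, DESeq2 or edgeR's exact test (1 higher at an unadjusted p under 0.05). Their sum was 16.0 to 71.95 CPM in saline and 32.5 to 149 CPM in PFSUV-IMQ tumors. Retnlg had a log2 fold change of 2.48 (SE 0.94, adjusted p = 0.291) and S100a9, a calcium-binding protein abundant in neutrophils, of 1.17 (SE 0.83, adjusted p = 0.651), and without PFSUV-IMQ tumor 2 these were 1.38 and 0.29. NK markers (5 tested of 7, median log2 fold change 0.34) and B cell markers (5 of 7, median 0.62) had no call by any of the 3 tools, with 1 higher and 1 lower and 1 higher and 0 lower at an unadjusted p under 0.05. The NK markers summed to 12.4 to 63.0 CPM in saline and 31.3 to 95.01 CPM in PFSUV-IMQ tumors, and Klra8 was at 0 in all tumors. The NK receptor gene Ncr1 had a log2 fold change of -1.64 (SE 0.66, adjusted p = 0.325) and Gzma, which encodes granzyme A, of 1.21 (SE 0.51, adjusted p = 0.347). The B cell markers summed to 2.67 to 12.02 and 4.80 to 32.4 CPM, and the B cell factor Pax5 had a log2 fold change of 1.91 (SE 0.77, adjusted p = 0.326) and Cd79a, a chain of the B cell receptor, of 0.81 (SE 0.66, adjusted p = 0.711). Without PFSUV-IMQ tumor 2 the log2 fold change was 0.91 for Pax5, 0.56 for Gzma and -2.42 for Ncr1. The 7 sinusoidal endothelial markers, from cells that carry FcγRIIB, summed to 122 to 275 and 91.1 to 173 CPM (median log2 fold change -0.58, with 0 called by any of the 3 tools and 0 at an unadjusted p under 0.05), with Stab2, an endocytic scavenger receptor, at -0.82 (SE 0.39, adjusted p = 0.428) and Gpr182 at -0.73 (SE 0.47, adjusted p = 0.603). Without saline tumor 4 these were -0.40 and -0.11.

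The remaining marker lists had no called gene in edgeR's quasi-likelihood test, and the dendritic cell list had 3 lower at an unadjusted p under 0.05 and 1 in DESeq2, while the other 5 lists had 0 at an unadjusted p and by each tool. Median log2 fold changes were -0.84 for 7 dendritic cell markers, 0.01 for 5 mast cell markers, 0.03 for 4 tested of 5 platelet markers, -0.13 for 6 T cell markers, -0.12 for the 8 hepatocyte markers and -0.19 for 3 tested of 4 hepatocellular carcinoma markers. Dendritic markers summed to 27.8 to 62.5 CPM in saline and 24.2 to 43.2 CPM in PFSUV-IMQ tumors, mast cell markers to 38.0 to 102 and 34.0 to 123 CPM, platelet markers to 15.9 to 32.9 and 17.9 to 36.3 CPM, T cell markers to 53.3 to 128 and 60.5 to 155 CPM, and carcinoma markers to 7.06 to 10.8 and 5.03 to 10.7 CPM. All these ranges overlapped between groups.

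Interferon-stimulated genes moved in every PFSUV-IMQ tumor. All 20 listed were called higher, with a median log2 fold change of 2.98, beside 2.26% of all tested genes. The list was written with earlier results of these data known, so this count is a description. Their mean log2 CPM was 7.77, 9.03, 8.11 and 8.21 in PFSUV-IMQ tumors 1, 2, 3 and 4, against 5.09 to 5.71 in saline tumors. Usp18, which removes ISG15 from proteins, had a log2 fold change of 4.82 (SE 0.42, adjusted p = 0.000594), Oasl1 of 4.14 (SE 0.32, adjusted p = 0.000499), the 2′-5′ oligoadenylate synthetase gene Oas2 of 3.87 (SE 0.45, adjusted p = 0.00243, and 3.27 without PFSUV-IMQ tumor 2) and Dhx58, a RIG-I-like receptor gene, of 3.53 (SE 0.33, adjusted p = 0.0008). The Fcgr1 and Fcgr4 differences, at 1.32 and 1.09, lay below these 4 values, and in the whole list of 20 only Irf9, at 1.26, had a smaller change than Fcgr1.

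**Figure D5:**
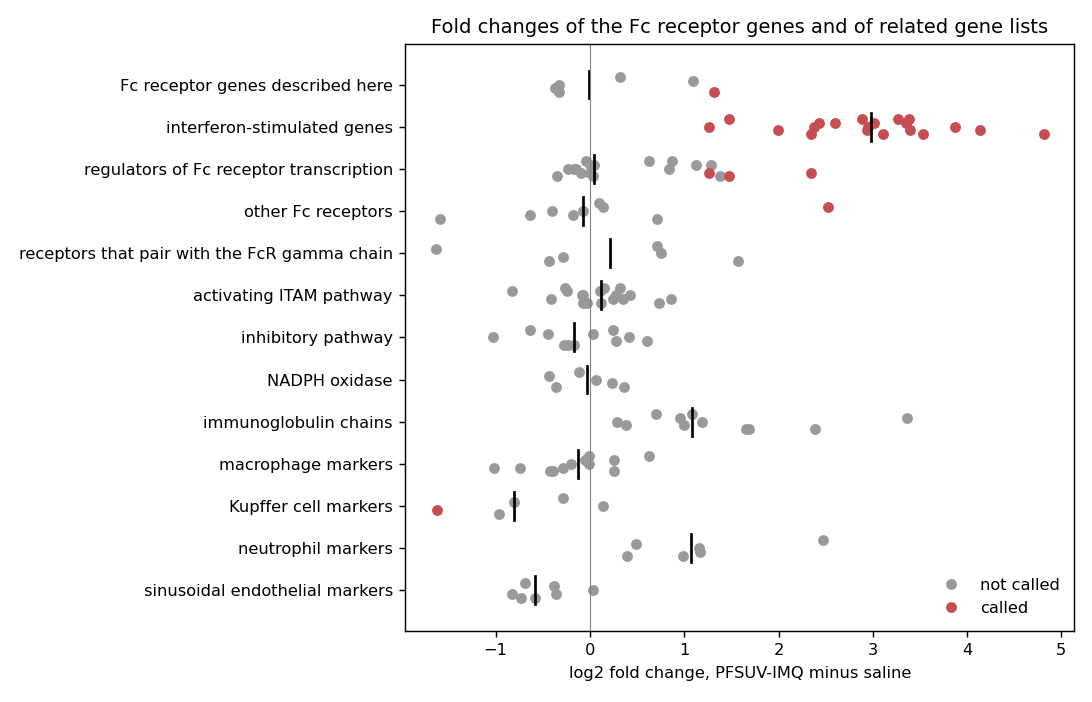
Log2 fold changes of PFSUV-IMQ against saline for the 6 Fc receptor genes and the tested genes of 12 related lists, with 1 point a gene, called genes in red and a line at each list's median. All 20 interferon-stimulated genes were called, while the Fc receptor genes ran from -0.38 to 1.32.

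Of 19 genes whose products regulate transcription of Fc receptors, edgeR's quasi-likelihood test called 3 higher and 0 lower, beside 2.26% and 0.200% of all tested genes (median log2 fold change 0.05). DESeq2 and edgeR's exact test each called 4 higher and 0 lower. At an unadjusted p under 0.05 there were 6 and 0, beside 8.34% and 4.65% of all tested genes. Among the 3 were Stat2, a mediator of interferon signaling (102 ± 11.9 to 517 ± 81.3 CPM, log2 fold change 2.34, SE 0.19, adjusted p = 0.000499), and Irf9, its DNA-binding partner (53.2 ± 7.93 to 127 ± 26.8 CPM, log2 fold change 1.26, SE 0.19, adjusted p = 0.0087). Both are also in the interferon-stimulated list, and both kept their call with any tumor left out. Sites of the ISRE type, whose core is marked in the Fcgr4 sequence, are bound by the complex that holds Irf9. Binding was not measured, and a link of Irf9 to the Fcgr4 difference, which was not called, was not tested.

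Among receptors for other antibody classes and Fc receptor-like genes, 9 of 14 were tested and edgeR's quasi-likelihood test called 1 higher and 0 lower, with a median log2 fold change of -0.07. At an unadjusted p under 0.05, 1 was higher and 1 lower, edgeR's exact test called 1 higher, and DESeq2 called 1 higher and 1 lower, the latter being Fcrls. The gene called by all 3 tools was Trim21, which encodes a cytosolic Fc receptor that directs antibody-bound particles to the proteasome, and which rose from 21.6 ± 3.72 to 124 ± 24.7 CPM (log2 fold change 2.53, SE 0.20, adjusted p = 0.000499) and kept its call with any tumor left out. Fcrls, an Fc receptor-like gene, had 11.1 ± 9.57 and 3.69 ± 0.838 CPM (log2 fold change -1.59, SE 0.53, adjusted p = 0.208 in the quasi-likelihood test), and -0.81 without saline tumor 4. The difference of Trim21 was larger than that of any of the 6 members.

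The lists of gamma chain partners, activating pathway, inhibitory pathway and NADPH oxidase had no call in the quasi-likelihood test of edgeR. In these lists DESeq2 and edgeR's exact test each called the receptor genes Clec4e higher and Cd300a lower. At an unadjusted p under 0.05, 1 gene was higher and 1 lower among receptors that pair with the gamma chain, 3 and 1 in the activating pathway, 1 and 2 in the inhibitory pathway and 0 and 0 among the NADPH oxidase genes. Over all tested genes the shares higher and lower were 8.34% and 4.65%. Of receptors that pair with the Fc receptor gamma chain, 6 of 8 were tested and 0 called (median log2 fold change 0.21), and Clec4e, the receptor Mincle for mycobacterial and cell-death ligands, had 3.48 ± 0.418 and 10.4 ± 8.51 CPM (log2 fold change 1.57, SE 0.49, adjusted p = 0.162), with a log2 fold change of 0.83 without PFSUV-IMQ tumor 2. None of 18 genes of the activating ITAM pathway was called (median 0.11). Card9, an adaptor of ITAM signaling, had a log2 fold change of -0.82 (SE 0.24, adjusted p = 0.143) with every PFSUV-IMQ tumor below every saline tumor, and 1 other gene of the list had every PFSUV-IMQ tumor above. None of 11 genes of the inhibitory pathway was called (median -0.17), and Cd300a and Sirpa, inhibitory receptors of myeloid cells, had log2 fold changes of -1.02 (SE 0.24, adjusted p = 0.0592) and -0.64 (SE 0.22, adjusted p = 0.228), each with every PFSUV-IMQ tumor below every saline tumor. In the same list Cblb, a ubiquitin ligase gene named after its values were seen, had every PFSUV-IMQ tumor above every saline tumor, with 81.2 ± 17.9 and 123 ± 11.8 CPM (log2 fold change 0.60, adjusted p = 0.158). Every PFSUV-IMQ tumor stood above every saline tumor in 6.00% of all tested genes. The share with every PFSUV-IMQ tumor below was not counted, so nothing is read from these separations. None of 6 NADPH oxidase genes, whose complex makes superoxide after receptor crosslinking, was called (median -0.03), with Cybb, the membrane subunit, at 0.36 (SE 0.29, adjusted p = 0.708).

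Immunoglobulin chains were also counted as RNA, and IgG protein was not measured. Of the listed chain genes, only Ighg1, Ighg2b, Ighg2c and Ighg3 encode IgG heavy chains. All 11 immunoglobulin chain genes had positive log2 fold changes (median 1.09) and 0 were called, with summed levels of 126 to 773 CPM in saline and 542 to 1533 CPM in PFSUV-IMQ tumors. At an unadjusted p under 0.05, 3 were higher, beside 8.34% of all tested genes, and DESeq2 and edgeR's exact test each called 3. Ighg1, the IgG1 heavy chain, had 29.5 ± 27.6 and 155 ± 55.8 CPM (log2 fold change 2.39, SE 0.65, adjusted p = 0.110), and Ighg3, the IgG3 heavy chain, had 0.822 ± 0.177 and 8.54 ± 11.99 CPM (log2 fold change 3.37, SE 0.93, adjusted p = 0.114). Both had every PFSUV-IMQ tumor above every saline tumor, as did 6.00% of all tested genes. Ighg2b and Ighg2c, named after their values were seen, overlapped between groups. Their log2 fold changes were 0.996 and 0.284 (adjusted p = 0.688 and 0.952, edgeR quasi-likelihood test). Pentraxins, which also bind Fc gamma receptors, had 0 of 3 called by edgeR's quasi-likelihood test and 1 at an unadjusted p under 0.05 (median 2.01). Of the 3, edgeR's exact test called 1 and DESeq2 called 0, but DESeq2 gave no adjusted p for Ptx3. In the quasi-likelihood fit Ptx3 had 0.524 ± 0.232 and 7.93 ± 10.7 CPM (log2 fold change 3.88, SE 0.89, adjusted p = 0.055), with 23.96 CPM in PFSUV-IMQ tumor 2. Crp had a log2 fold change of 2.01 (SE 0.95, adjusted p = 0.428). Without PFSUV-IMQ tumor 2 these log2 fold changes were 2.25 for Ptx3 and 0.52 for Crp, and that of Ighg3 was 1.64 without PFSUV-IMQ tumor 1. Of 6 genes for the partner and cargo of FcRn, 0 were called by edgeR's quasi-likelihood test (median 0.75). DESeq2 and edgeR's exact test each called 2, and 2 had an unadjusted p under 0.05. The 2 called genes were Ighg1 and Ighg3, already counted among the immunoglobulin chains. B2m, the FcRn light chain, named after its values were seen, had 2795 ± 532 and 3972 ± 340 CPM (log2 fold change 0.51, SE 0.23, adjusted p = 0.385).

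The genes with the most similar pattern were found as those with the smallest SD over the 8 tumors of the log2 ratio to the member, among 14662 genes with a mean of at least 1 CPM. All 8 tumors enter each value, so it reflects the group difference and the tumor-to-tumor spread together. For Fcgr1 these were Nod1 (SD 0.155), a cytosolic peptidoglycan sensor, Myd88 (0.1699), the adaptor of most Toll-like receptors, and Jaml (0.1801), with log2 fold changes of 1.39, 1.24 and 1.21. For Fcgr4 they were Gypc (0.158), Prkcq (0.168) and Il18bp (0.197), with 0.99, 1.12 and 1.33. For Fcgr3 they were Lyz2 (0.113), the lysozyme of myeloid cells and 1 of the 12 macrophage markers, Ksr1 (0.120) and Tgfbr2 (0.121), with -0.28, -0.42 and -0.46. For Fcgr2b they were Trmt2b (0.0796), Cryz (0.111) and Aldh9a1 (0.115), with -0.31, -0.35 and -0.39. For Fcer1g they were Lilr4b (0.0953), Unc13d (0.106) and Tnfaip2 (0.118), with 0.44, 0.22 and 0.26. For Fcgrt they were Fcna (0.0766), Inpp5d (0.0875) and Gsta4 (0.0973), with -0.36, -0.23 and -0.31. Among the members themselves, Fcgr2b and Fcgr3 had the smallest such SD, 0.146, which includes the sequence they share, and Fcgr1 and Fcgr4 had 0.353.

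Flanking genes were read from the same fit. Fcgr4 lies between Fcgr2b and Fcgr3 on chromosome 1, 42373 bases from the former and 21413 from the latter, and its log2 fold change of 1.09 stood between values of -0.38 and -0.33. Beyond this trio, the next protein-coding genes were Fcrla (-0.64, SE 0.38) and Cfap126 (0.25, SE 0.34). Fcer1g lies 3193 bases from Apoa2 (0.60, SE 0.79), a liver apolipoprotein gene, and Fcgrt 769 bases from Rcn3 (0.20, SE 0.32). None of these 4 flanking genes was called (adjusted p from 0.570 to 0.876, edgeR quasi-likelihood test). The protein-coding neighbours of Fcgr1 on chromosome 3, Hist2h2bb and BC107364, had no counts.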

How the data were processed

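Every test started from the read counts per gene that the authors deposited, whole numbers for each of 8 tumors. The authors also deposited a signal table, in which counts had been divided by 1 DESeq2 size factor per tumor, and it served only to match symbols to Ensembl identifiers. The submitters' processing notes name Trimmomatic 0.38, HISAT2 2.1.0 and featureCounts 2.0.0, whereas the study's methods name TopHat and HTSeq, and the genome build is not given in the sources used here. All 55536 counted identifiers are in GENCODE M21 (GRCm38), from which coordinates and exon lengths were taken.

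Genes were compared in R 4.3.3 with edgeR 4.0.16 (TMM factors, default low-count filter, quasi-likelihood test, Benjamini-Hochberg adjustment over 15998 genes), after trial on simulated data. Levels and ratios were computed with pandas 2.3.3 in Python 3.11.15, ratios from log2 CPM with a prior count of 2. The members, gene lists and naming rule were chosen with earlier results of these data known. The rule names the members, the called genes of each list (at most 4, or the 2 largest log2 fold changes where fewer than 2 were called), the 3 genes most like each member and the flanking protein-coding genes (some of these are not reported here), and lists outside the antibody, interferon, myeloid, lymphoid and endothelial themes are given by counts. Alternatives were DESeq2 1.42.0, edgeR's exact test, other size factors and filters, no fold limit, a replicate term, a prior count of 0.5 and each tumor left out in turn. No batch or date is given, so a batch that followed the groups could not be told apart from the treatment. The p values set the group difference against the spread between these tumors. Within a group, tumors differed by more than sampling noise, and none was merged.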

Additional observations from a re-analysis of the deposited data

Results flagged for a closer look

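In a group of 4 tumors, 1 value was called far from the others where its gap to the nearest, as a share of the group's range, exceeded Dixon's 95% critical value, and chance gives this in about 1 of 20 groups. Of 108 groups examined, 17 had such a value, none of them a CPM of the 6 Fc receptor genes. In the make-up of the chains, the Fcgr3 share of saline tumor 3 was 53.8%, against 58.0 to 58.2% in the other saline tumors. The log2 ratio of Fcer1g to Fcgr2b in saline tumor 5 was -0.88, against -1.65 to -1.52.

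PFSUV-IMQ tumor 2 gave 11 of the 17 values, each above the rest of its group. They were Cd79a at 8.45 CPM, Crp at 578 CPM, Cybb at 207 CPM, Dhx58 at 210.2 CPM, Gpr182 at 6.92 CPM, Gzma at 2.03 CPM, Oasl1 at 715 CPM, Pax5 at 9.50 CPM, Ptx3 at 23.96 CPM, Retnlg at 11.0 CPM and S100a9 at 54.3 CPM. Ighg3 stood at 26.4 CPM in PFSUV-IMQ tumor 1, against 1.17 to 4.75 CPM in the others. In the saline group, Cybb was low in tumor 5 at 65.1 CPM, Oasl1 was high in tumor 5 at 44.5 CPM and Stab2 was high in tumor 4 at 38.1 CPM.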

How the results depend on the processing

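Fcgr1 was called higher in 6 other settings (DESeq2's size factors or upper-quartile factors in edgeR, DESeq2's Wald test, a stricter filter of 10 counts in every tumor, no such filter, and no limit on the fold change), and no member was called lower in any setting run. In edgeR's exact test 2 members were called higher, the second being Fcgr4. With each tumor left out in turn, 0 to 1 members were called higher, with 0 without any 1 saline tumor or without PFSUV-IMQ tumor 2. Over all genes, those fits called 197 to 375 higher and 8 to 38 lower. DESeq2, run on all genes with a count, called 619 higher and 131 lower, of which 551 and 117 were among the 15998 genes tested by edgeR, edgeR's exact test called 92 lower, and the fit with no filter called 63 lower.

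The groups share replicate numbers 1, 3 and 4, but tumors of the same number did not deviate together (correlations of 0.29, -0.27 and -0.32), so the number is not taken as a pairing. A fit with the replicate block over these 6 tumors called 0 members and 300 genes lower, and the same 6 tumors without the block, an alternative chosen after seeing the data, gave 0 and 205. Fcgr1 had log2 fold changes of 0.95 and 0.94 in these fits and Fcgr4 of 0.59 and 0.58. Signs reversed for 3 other genes, Cybb to -0.15 with the replicate block and -0.14 without it, Unc13d to -0.035 and -0.039, with a range of -0.085 to 0.344 when each tumor was left out, and Cd79a, with a range of -0.063 to 1.219 (the lower end of each range being without PFSUV-IMQ tumor 2). The cause was not tested, beyond the fewer tumors fitted. Member ratios with a prior count of 0.5, and the differences in shares and ratios with each tumor left out, kept their direction wherever the groups did not overlap, and the leave-one-out ratios were also added after seeing the data. The 4 tumors per group limit the precision of every value.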
